A study of Mus musculus with 7 samples.

Results

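The lymphocyte chemokine receptor genes Ccr1, Ccr6, Ccr9, Ccr10, Cxcr3, Cxcr4, Cxcr5 and Cxcr6 were followed through whole transcriptome RNA sequencing of mouse T-cells. They were taken from the files by gene name, and are 8 of the 25033 genes listed for every library. The libraries came from 4 ORP4L KI mice and 3 WT littermates, all C57BL/6J and 15 months old. ORP4L KI mice carry human ORP4L, an oxysterol-binding protein, behind a CAG promoter and a loxP-flanked stop at Rosa26, and were crossed to Lck-Cre, so that the protein was made in T-lineage cells. By the study's description the ORP4L KI mice sampled were moribund with T-cell leukemia, so ORP4L and the leukemic state cannot be told apart in this design. By the methods, T-cells came from blood or spleen, were isolated as CD4+ cells with a kit for naive CD4+ T cells, and were kept in culture with IL-2 and PHA, but which of these steps and sources applied to each library is not given in the sources used here. The number of reads per gene is called the count. CPM is the count scaled to its library total, with TMM factors, and RPKM is the authors' value per kilobase of transcript.

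Chemokine receptors are G protein-coupled receptors that sense gradients of small secreted proteins, signal through Gi, and turn a cell's movement toward the source. Lymphocytes are sorted among tissues in this way. CXCR4 reads CXCL12 and holds cells in bone marrow. CXCR5 reads CXCL13 and leads B cells and follicular helper T cells into follicles, and CCR9 reads CCL25 and leads cells to thymus and small intestine. CXCR3, the receptor of CXCL9 and CXCL10, marks type 1 effector cells. CXCR6 binds CXCL16, CCR6 binds CCL20 on type 17 cells, CCR10 binds CCL27 and CCL28 in skin and mucosa, and CCR1 binds CCL3 and CCL5 and is also borne by myeloid cells.

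Of the 8 genes, 1 was called different between the groups. Ccr9 was lower in all 4 ORP4L KI libraries than in any WT library, by 3.03-fold on means. Cxcr4, the most abundant of the 8, was higher in all 4 ORP4L KI libraries after TMM scaling, by 1.33-fold, but not in all 4 with library totals alone, and its difference did not pass either rule. The other 6 genes overlapped between the groups. With edgeR's quasi-likelihood test, 2 rules for a call were used. The first, the limits drawn by the study for these data, asks for an unadjusted p below 0.01 and more than 1 log2 unit of change. The study's methods name no test for these data, and its number of called genes differed from the 630 called here. The second asks for an adjusted p below 0.05. Over the 13462 genes tested, 4.68% were called by the first rule in either direction and 2.3% were called lower in ORP4L KI, while 0.0223% were called by adjusted p. Of all genes tested, 7.38% had every ORP4L KI library below every WT library and 6.43% had every ORP4L KI library above. All 8 receptor genes passed the filter on low counts. The first rule called 1 of the 8 and the adjusted p called 0. The edgeR test gave 1 of the 8 at an unadjusted p under 0.05, and DESeq2's Wald test called 1 by adjusted p. The median log2 fold change of the 8 was 0.02, beside 0.01 over all genes tested.

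**Figure D1:**
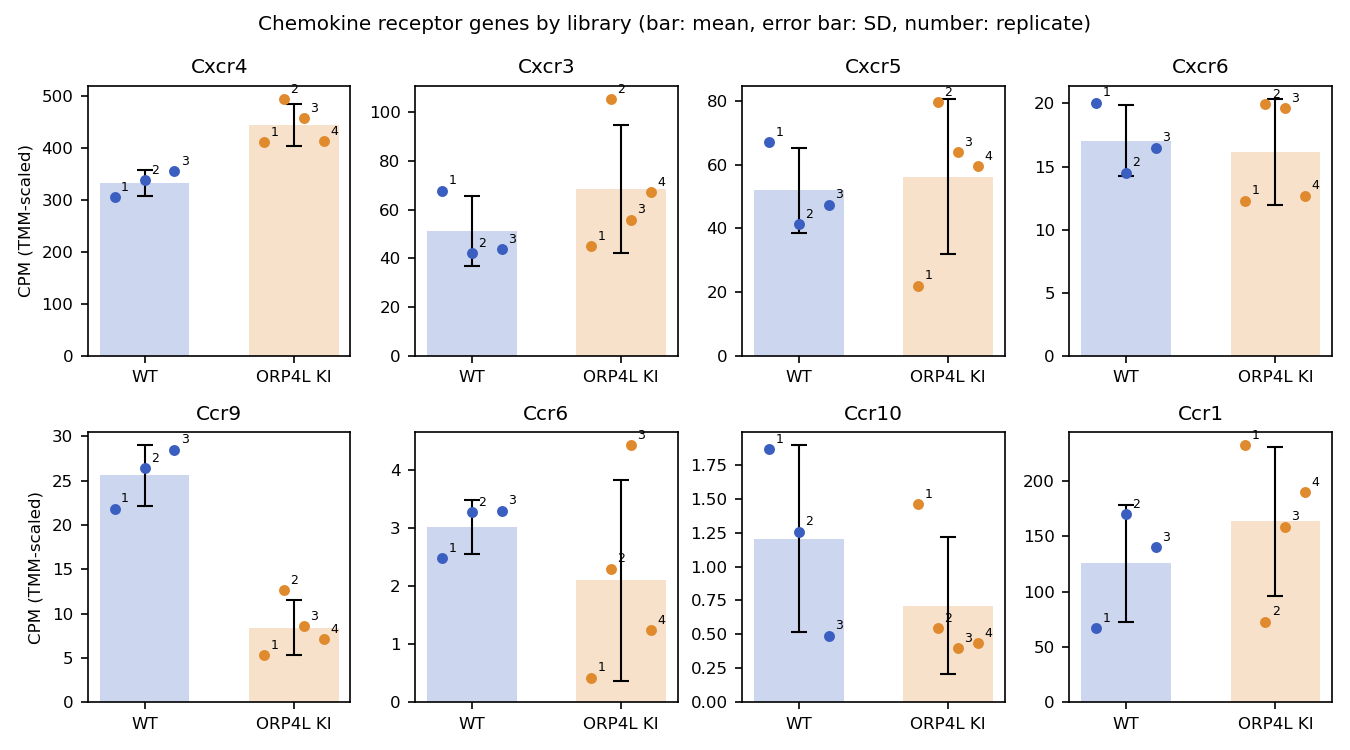
CPM of each receptor gene by library (bars: mean, error bars: SD, points: libraries, with the replicate number beside each; 3 WT and 4 ORP4L KI). The 4 ORP4L KI points of Ccr9 lie between 5.36 and 12.7 CPM, below the WT points at 21.9 to 28.5 CPM. Those of Cxcr4 lie above the WT points at this scaling, though not with library totals alone.

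Totals per library were 12918187 to 15912921 counts in WT and 16757959 to 19665679 in ORP4L KI, so that 3 counts, the limit a count of 0 allows, were 0.164 to 0.211 CPM. That limit covers counting error only. Reads assigned to Osbp2, which encodes ORP4L in the mouse, numbered at most 1 in any WT library and 155 to 742 in ORP4L KI. The knocked-in sequence is human and the mapping reference was mouse. These counts therefore do not tell reads of the mouse gene from those of the knocked-in one, nor give the level of the latter. T-cell markers were present in every library, Cd3e at 1826 to 4467 counts, Cd4 at 1534 to 7568 and Cd8a at 1307 to 4131. The 14 granulocyte markers took 0.186% to 0.530% of the counts in WT and 1.12% to 12.2% in ORP4L KI, with all 14 called higher by the first rule. The 14 T-cell markers took 0.294% to 0.452% in WT and 0.161% to 0.591% in ORP4L KI, with none called. By Xist and Y-linked Ddx3y, WT replicate 1 and ORP4L KI replicates 1 and 2 formed a class apart from the other 4 libraries. In such mixtures of cells, fewer cells of a type and less RNA per cell cannot be told apart.

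The sequences just upstream of Ccr9 and Cxcr4 are shown because these were the receptor genes whose groups did not overlap. Both are 250 bases of the RefSeq promoter table on GRCm38.p6, the mm10 build, ending at the base before the annotated start. Windows were in hand for 6 of the 8 genes. Capitals mark matches, on either strand, to the E-box CANNTG, the GC box GGGCGG or the TATA sequence TATAAA. The Runx motif TGTGGT was searched also, without a match in these windows. The Ccr9 window, chr9:123766961-123767210 on the + strand, is followed by that of Cxcr4, chr1:128592300-128592549 on the - strand.
Ccr9 upstream: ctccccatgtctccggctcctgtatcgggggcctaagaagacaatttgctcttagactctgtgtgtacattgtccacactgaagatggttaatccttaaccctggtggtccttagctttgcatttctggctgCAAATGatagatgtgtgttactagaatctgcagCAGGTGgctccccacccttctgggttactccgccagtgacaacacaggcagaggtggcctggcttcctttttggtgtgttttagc
Cxcr4 upstream: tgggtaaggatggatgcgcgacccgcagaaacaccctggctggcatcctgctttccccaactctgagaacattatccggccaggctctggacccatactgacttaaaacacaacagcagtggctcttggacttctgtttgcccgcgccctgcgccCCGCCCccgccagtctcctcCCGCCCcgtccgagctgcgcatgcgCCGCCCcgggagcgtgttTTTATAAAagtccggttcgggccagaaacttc
The Ccr9 window held 2 E-boxes, CAAATG and CAGGTG, starting 118 and 85 bases before the start, and 3 CpG dinucleotides. The Cxcr4 window held 3 GC boxes, read here as CCGCCC, which began 95, 75 and 50 bases before the start. It also held the TATA sequence in overlapping matches on both strands, 32 and 30 bases before the start. It had 19 CpG dinucleotides and no E-box. Of 32851 windows of this length, 66.22% held an E-box, 32.74% a GC box, 12.37% the TATA sequence and 14.05% the Runx motif, so an E-box is the common case. A match describes letters and says nothing of binding.

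Per transcript length, Cxcr4 stood far above the rest. Cxcr4 had the highest deposited RPKM of the 8 genes in all 7 libraries, at 195 ± 18.5 in WT (SD, n = 3) and 237 ± 47.7 in ORP4L KI (SD, n = 4). Ccr1 followed at 46.7 ± 18.4 and 53.5 ± 17.7, then Cxcr3 at 33.9 ± 10.3 and 41.9 ± 20.6 and Cxcr5 at 21.0 ± 6.01 and 21.2 ± 10.7. The libraries of Ccr1 and Cxcr3, and those of Cxcr3 and Cxcr5, overlapped in both groups, so their order is not resolved. Cxcr6 came next after these 4 genes in all 7 libraries, at 9.57 ± 1.90 and 8.34 ± 2.998 RPKM. In ORP4L KI its range overlapped that of Cxcr5. Ccr9, at 6.27 ± 0.910 RPKM, lay clear of both neighbours in the WT order, whereas in ORP4L KI, at 1.93 ± 0.921, its libraries overlapped those of Ccr6, at 1.35 ± 1.14. Ccr6 in WT stood at 2.05 ± 0.307 RPKM. Ccr10 had the lowest mean, at 0.736 ± 0.427 RPKM in WT and 0.379 ± 0.225 in ORP4L KI. Its ORP4L KI libraries overlapped those of Ccr6, and in ORP4L KI replicate 1 it stood above Ccr6, at 0.706 against 0.228.

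**Figure D2:**
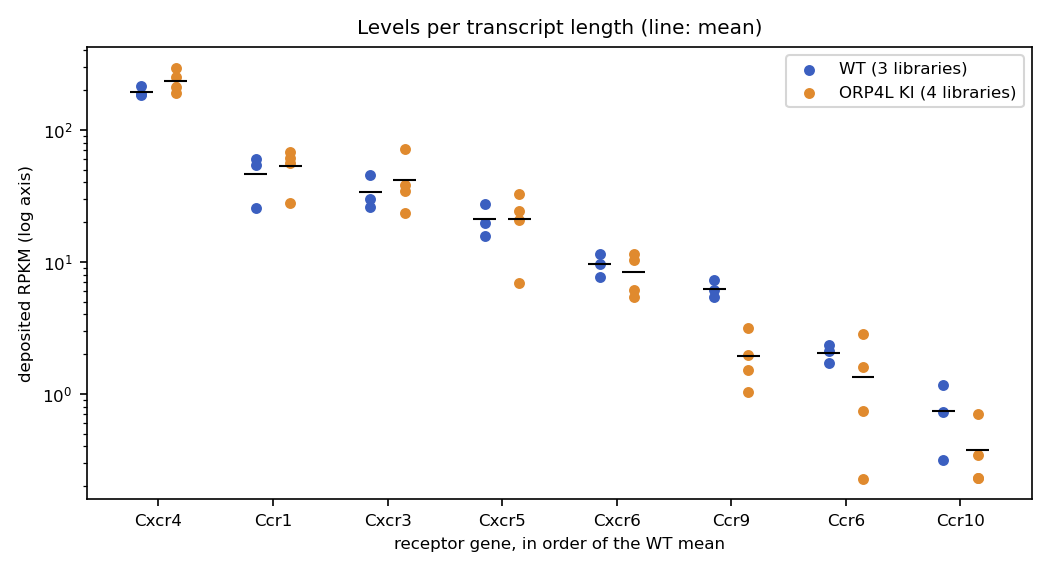
Deposited RPKM on a log axis for the 8 receptor genes in order of their WT mean (points: libraries, 3 WT and 4 ORP4L KI; lines: means). Cxcr4 tops every library, and Ccr9 drops from 6.27 in WT to 1.93 in ORP4L KI, into the range of Ccr6.

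Ccr9, the receptor for the gut and thymus chemokine CCL25, lies on chromosome 9 at 123767211 to 123783457. The 3 WT libraries, in the order of their replicate numbers, had 352, 420 and 406 counts of Ccr9, and the 4 ORP4L KI libraries had 88, 231, 150 and 115. As CPM these were 21.9, 26.4 and 28.5 in WT and 5.36, 12.7, 8.62 and 7.15 in ORP4L KI. The lowest WT library was above the highest ORP4L KI library, replicate 2. Means were 25.6 ± 3.40 CPM (SD, n = 3) and 8.44 ± 3.11 CPM (SD, n = 4), a log2 fold change of -1.60 (SE 0.29). The edgeR test gave an unadjusted p of 0.000348 and an adjusted p of 0.0623. The two-sided exact permutation test over the 35 splits gave p = 0.0286, the smallest it can give. Ccr9 was called by the unadjusted rule under all 14 alternative settings, with log2 fold changes from -1.88 to -1.44, and by adjusted p under 3 of them, which were no filter, DESeq2's Wald test and the fit without ORP4L KI replicate 2 (adjusted p = 0.0140). The separation of the groups held also with counts scaled by library totals alone. Within the Xist class the log2 ratio of means was -1.28 and within the Ddx3y class -1.80. Of the 50-base stretches in Ccr9 transcripts of the GENCODE set, 2.135% also occur in Gm17200. Whether the authors' mRNA reference held Gm17200 is not given here, and sharing of reads was not tested.

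Cells other than T cells can carry Ccr9, plasmacytoid dendritic cells among them, and the markers of that cell type were also lower in ORP4L KI. Isolation by a kit for naive CD4+ T cells, as the methods describe, is meant to remove such cells and NK cells. All 5 markers lay lower in all 4 ORP4L KI libraries than in WT, and 4 of 5 were called. Their summed level was 203, 238 and 147 CPM in WT and 49.0, 67.3, 46.7 and 47.0 CPM in ORP4L KI. Within WT the orders differed, as the sum was lowest in replicate 3, where Ccr9 was highest at 28.5 CPM. Within ORP4L KI both were highest in replicate 2, but Ccr9 was lowest in replicate 1 and the sum in replicate 3. Siglech had a log2 fold change of -2.29 (SE 0.30, adjusted p = 0.0601), Klk1 of -2.77 (SE 0.40, adjusted p = 0.0601), Cd300c of -1.90 (SE 0.30, adjusted p = 0.0601) and Cox6a2 of -2.13 (SE 0.43, adjusted p = 0.0686). The part of these cells in the Ccr9 difference was not tested. Across the 7 libraries, the genes whose centred log2 CPM followed Ccr9 most closely among 11589 genes were Klri2 and Adamts14, with root mean square differences of 0.13 and 0.14. Klri2, a lectin-like receptor of natural killer cells, had 54.8 to 69.9 CPM in WT and 13.0 to 27.4 CPM in ORP4L KI. Of 9 NK-cell markers, 6 were called lower and 0 higher, with a median log2 fold change of -1.50. Gzma was at -2.26 and Klra8 at -1.67. Nkg7 went the other way, at 0.69 (SE 0.23), with all 4 ORP4L KI libraries above all WT libraries. Prf1 at -0.60 and Klrk1 at -0.36 overlapped between the groups.

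**Figure D3:**
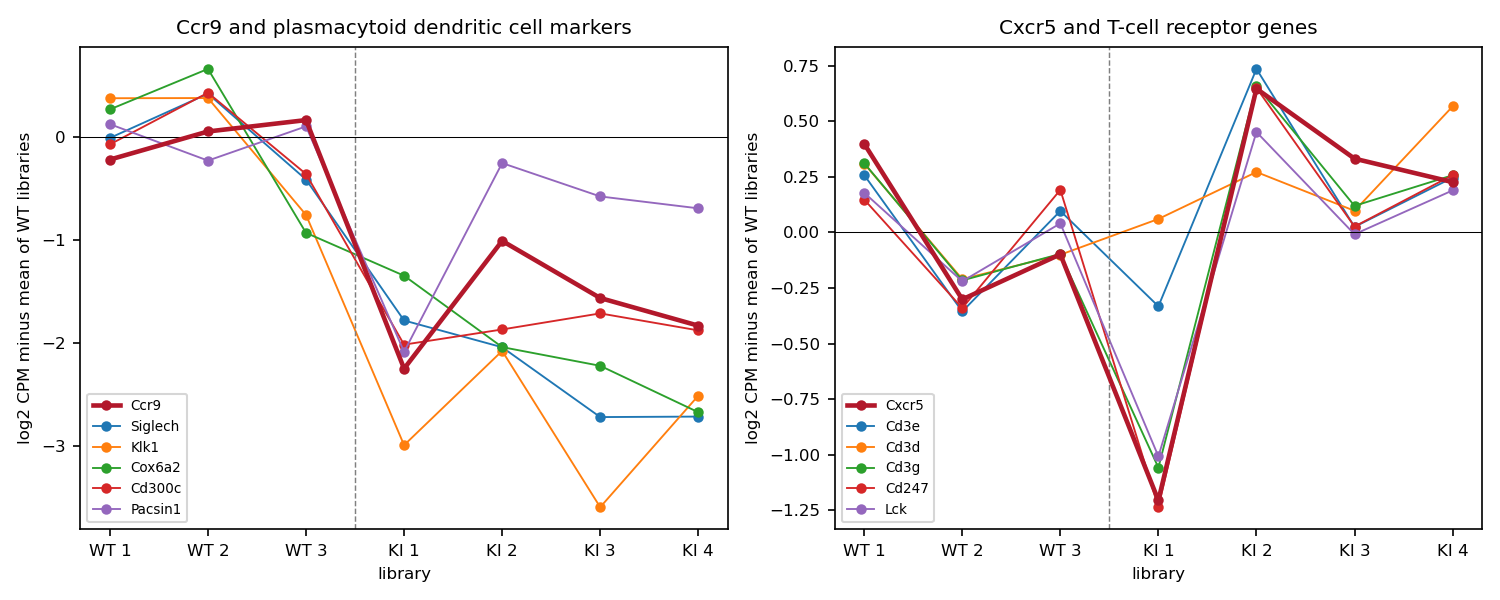
Log2 CPM of each gene minus its mean over the 3 WT libraries, by library. On the left Ccr9 is drawn with the 5 markers of plasmacytoid dendritic cells, which lie below their WT mean in all 4 ORP4L KI libraries. On the right Cxcr5 is drawn with 5 T-cell genes, picked after their values were seen, where ORP4L KI replicate 1 is low for Cxcr5 at 22.0 CPM and near its WT mean for Cd3d.

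Cxcr4, the receptor for CXCL12 that keeps leukocytes in marrow, lies on chromosome 1 at 128588199 to 128592299. Listed by replicate number, its levels were 306, 338 and 356 CPM in WT, against 411, 495, 458 and 414 CPM in ORP4L KI. All 4 ORP4L KI libraries were above all WT libraries, with means of 333 ± 25.3 (SD, n = 3) and 444 ± 39.8 CPM (SD, n = 4). The log2 fold change was 0.42 (SE 0.19), the edgeR adjusted p was 0.373 and the exact permutation p was 0.0286, the smallest possible. The separation depended on the scaling. Scaled by library totals alone, 2 of the 4 ORP4L KI libraries lay above all WT libraries and the log2 fold change was 0.28, with values of 331, 337 and 392 in WT and 343, 539, 456 and 381 in ORP4L KI. The direction stayed positive under all 14 alternatives, from 0.28 to 0.47, with adjusted p from 0.133 to 0.930. Cxcl12, the gene of its ligand, read 3.48, 4.28 and 3.65 CPM in WT and 0.426, 1.04, 2.47 and 0.435 CPM in ORP4L KI. This was a log2 fold change of -1.78 (SE 0.57, edgeR adjusted p = 0.189), on 7 to 43 counts in ORP4L KI. Mfsd14a and Nsrp1 followed Cxcr4 most closely, with root mean square differences of 0.06 for both on the log2 scale.

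Ccr1 and Cxcr3, the inflammatory receptors, varied widely within groups. Ccr1, on chromosome 9 at 123962126 to 123968692, read 67.3, 170 and 140 CPM in WT and 232, 73.0, 159 and 190 CPM in ORP4L KI. The lowest WT and lowest ORP4L KI libraries were close, and the means were 126 ± 52.9 (SD, n = 3) and 164 ± 67.4 (SD, n = 4). The log2 fold change of Ccr1 was 0.38 (SE 0.41, edgeR adjusted p = 0.786), and between 0.08 without WT replicate 1 and 0.66 without WT replicate 2. Among ORP4L KI libraries the order of Ccr1 was that of the granulocyte-marker share, which was 12.2%, 1.12%, 3.06% and 4.91% by replicate number. In WT the share was 0.530%, 0.455% and 0.186%, and the order differed from that of Ccr1. The part of granulocytes in Ccr1 was not tested. Cd300lb, a myeloid receptor, and Kcnj2, a potassium channel, followed Ccr1 most closely, with root mean square differences of 0.17 and 0.18.

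Cxcr3, on the X chromosome at 101731535 to 101734147, read 67.8, 42.3 and 43.8 CPM in WT and 45.0, 105, 55.9 and 67.4 CPM in ORP4L KI. ORP4L KI replicate 2 was highest, and the other 3 lay within the WT range. Means were 51.3 ± 14.3 (SD, n = 3) and 68.4 ± 26.3 CPM (SD, n = 4), with a log2 fold change of 0.42 (SE 0.31, edgeR adjusted p = 0.645). It was 0.11 without ORP4L KI replicate 2 and 0.67 without WT replicate 1. Within the Ddx3y class the means were 43.0 and 61.7 CPM, and within the Xist class, with 1 WT library, 67.8 and 75.2 CPM. Tox2 and Syt11 followed Cxcr3 most closely, at a root mean square difference of 0.12 for both. Of the factors of receptor-bearing T-cell subsets, Eomes had the lowest p, with 65.9 to 101 CPM in WT and 105 to 534 CPM in ORP4L KI, also with the highest value in ORP4L KI replicate 2. Its log2 fold change was 1.59 (SE 0.50), with an unadjusted p of 0.0101 and an adjusted p of 0.178, which missed both rules. It met the first rule with DESeq2 size factors, with no filter, with DESeq2's Wald test and without ORP4L KI replicate 1 (1.84), while without ORP4L KI replicate 2 it was 0.95.

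Cxcr6, the receptor of the membrane-bound chemokine CXCL16, had no detectable difference. It lies on chromosome 9 at 123806477 to 123811754. Cxcr6 read 20.1, 14.5 and 16.5 CPM in WT and 12.3, 19.9, 19.6 and 12.7 CPM in ORP4L KI. Means were 17.03 ± 2.81 (SD, n = 3) and 16.1 ± 4.22 CPM (SD, n = 4), the log2 fold change was -0.08 (SE 0.26) and the edgeR adjusted p was 0.939. Its sign turned without WT replicate 1, at 0.06, and without ORP4L KI replicate 1 or 4, at 0.03 and 0.02. Its span overlaps that of Fyco1, and the counting is not stated to use strand. Of the 50-base stretches in Cxcr6 transcripts of the GENCODE set, 0% also occur in the same sense in transcripts of other genes. Whether reads of Fyco1 were counted for Cxcr6 was not tested. Natd1 followed Cxcr6 most closely, at a root mean square difference of 0.07.

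Cxcr5, the follicular receptor, lies on chromosome 9 at 44511787 to 44526444 and overlaps Bcl9l. It read 67.0, 41.3 and 47.5 CPM in WT and 22.0, 79.6, 64.0 and 59.5 CPM in ORP4L KI, where replicate 1 was far below the rest. Means were 51.9 ± 13.4 (SD, n = 3) and 56.3 ± 24.4 CPM (SD, n = 4), with a log2 fold change of 0.12 (SE 0.38, edgeR adjusted p = 0.939). Without WT replicate 2 or ORP4L KI replicate 2 the sign turned, to -0.03 and -0.11. The genes that followed it most closely were Cd3g, a chain of the T-cell receptor complex, and Zap70, its proximal kinase, with root mean square differences of 0.11 and 0.12. Cd3g read 257 to 370 CPM in WT, and 143 CPM in ORP4L KI replicate 1 beside 324 to 471 CPM in the other 3. The sum of the 14 T-cell markers was also lowest in that library, at 0.161% of the counts. Of the 12 B-cell markers, 0 were called, and their median log2 fold change was -0.29, Fcrla at -0.81 and Blk at -0.42 having the lowest p.

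Ccr6 and Ccr10 were the lowest of the 8. Ccr6, of type 17 T cells and B cells, lies on chromosome 17 at 8236041 to 8258519 and had 40, 52 and 47 counts in WT and 7, 42, 77 and 20 in ORP4L KI. The 3 WT libraries were close, at 2.48 to 3.30 CPM, while the ORP4L KI libraries ran from 0.426 to 4.42 CPM, a 10.4-fold range. The log2 fold change of Ccr6 was -0.52 (SE 0.62, edgeR adjusted p = 0.807). It was -0.19 without ORP4L KI replicate 1 and -1.18 without replicate 3. Klra13-ps and Caskin2 followed it most closely, with wide root mean square differences of 0.29 and 0.36. Ccr10, on chromosome 11 at 101172998 to 101175443 and overlapping Cntnap1, had 30, 20 and 7 counts in WT and 24, 10, 7 and 7 in ORP4L KI. These were 1.86, 1.26 and 0.492 CPM and 1.46, 0.548, 0.402 and 0.435 CPM, so that WT replicate 1 and ORP4L KI replicate 1 were the highest. The log2 fold change of Ccr10 was -0.76 (SE 0.61, edgeR adjusted p = 0.672), and -0.31 without WT replicate 1. Jchain, which joins IgA and IgM in plasma cells, was the gene nearest to it, at a root mean square difference of 0.19, with 390, 291 and 155 CPM in WT and 332, 126, 146 and 132 CPM in ORP4L KI. BC035044 came next, at 0.29. Of the 5 plasma-cell markers tested, 0 were called, with Jchain at a log2 fold change of -0.60 and Sdc1 at -0.25.

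Among the remaining chemokine receptors, 0 of 11 were called, 8 had negative and 3 positive log2 fold changes, and the median was -0.03. By lowest p these were led by Ccrl2 at -0.70 (SE 0.25) and Xcr1, of cross-presenting dendritic cells, at -0.87 (SE 0.34). Ccr7, the lymph node receptor, was at -0.68. Of the 3 atypical receptors tested, which take up chemokines without G protein signalling, 0 were called. Ackr3, which scavenges the CXCR4 ligand CXCL12, had -1.36 (SE 0.54) and Ackr1 had -0.42. Without ORP4L KI replicate 3, Xcr1 at -1.23 and Ackr3 at -1.83 met the first rule. Other fits that leave out 1 library gave smaller changes, down to -0.71 for Xcr1 without ORP4L KI replicate 1. For Ackr3 the smallest was -0.78, without WT replicate 2.

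**Figure D4:**
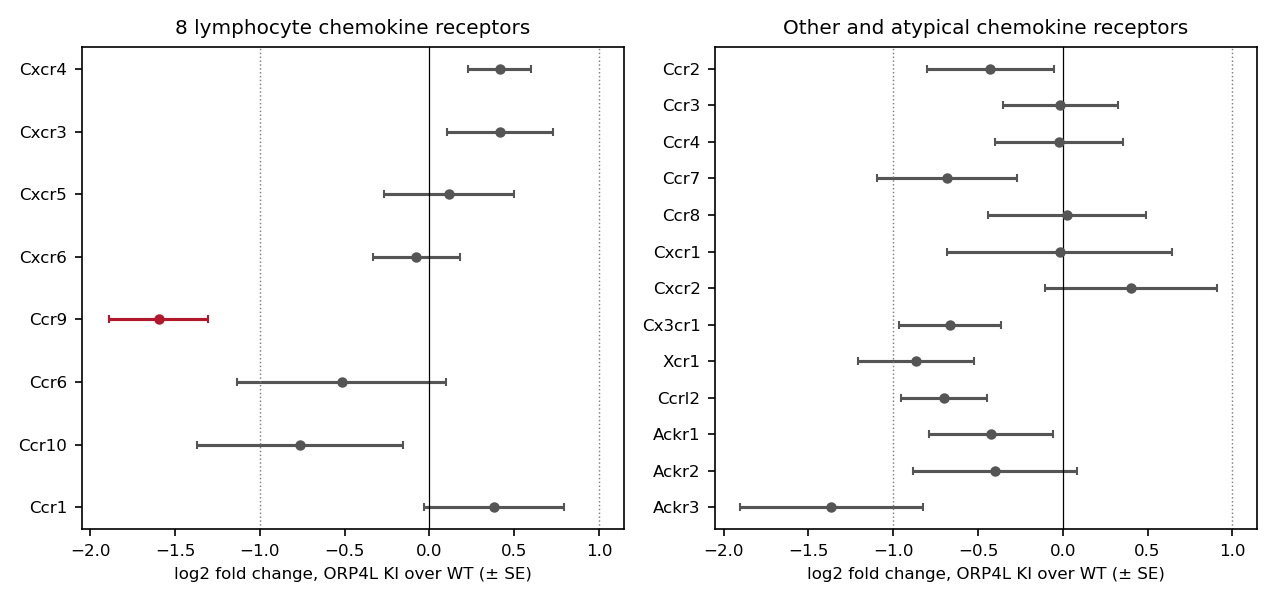
Log2 fold change of ORP4L KI over WT with its SE for the 8 receptor genes (left) and for 10 of the 11 other and for 3 atypical chemokine receptors (right). Red marks a gene called by the first rule, and dotted lines are at 1 and -1. Ccr9 at -1.60 is the one gene in red.

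Of 13 ligand genes tested, 1 was called higher and 2 lower, and the median log2 fold change was -0.19. Ccl5, a ligand of CCR1, had 435, 358 and 241 CPM in WT and 679, 999.6, 656 and 644 CPM in ORP4L KI, without overlap. Its log2 fold change was 1.11 (SE 0.28, edgeR adjusted p = 0.110). Cxcl9, a CXCR3 ligand, read 32.1, 34.5 and 16.9 CPM in WT and 2.31, 9.97, 10.97 and 7.46 CPM in ORP4L KI, a log2 fold change of -1.85 (SE 0.47, edgeR adjusted p = 0.112). Cxcl13, the CXCR5 ligand, read 3.66, 1.76 and 1.26 CPM in WT and 0.426, 0.931, 0.689 and 0.871 CPM in ORP4L KI, a log2 fold change of -1.60 (SE 0.48, edgeR adjusted p = 0.160). All 4 ORP4L KI libraries were below WT for Cxcl9 and for Cxcl13. For Cxcl13 the ORP4L KI values rest on 7 to 17 counts. Cxcl10, the other CXCR3 ligand tested, had a log2 fold change of 0.35 (SE 0.32), and Cxcl16 had -1.32 (SE 0.42), an unadjusted p of 0.0117 that missed the rule. Ccl25, the ligand of CCR9, was low at 1.52 CPM in WT and 1.33 CPM in ORP4L KI on means, a log2 fold change of -0.19 (SE 0.36). Ccl20, Ccl28 and Cxcl11 did not pass the filter. Each of these calls was lost when certain single libraries were left out. Ccl5 was lost without WT replicate 2 (1.14) or 3 (0.91) or ORP4L KI replicate 2 (0.93), and with library totals alone (0.99). Cxcl9 was lost without WT replicate 1 (-1.74) or 2 (-1.67). Cxcl13 was lost without WT replicate 1 (-1.05) or 2 (-1.75) and without ORP4L KI replicate 1 (-1.42), 3 (-1.58) or 4 (-1.70), and also with the Xist or Ddx3y class as a term (-1.59).

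**Figure D5:**
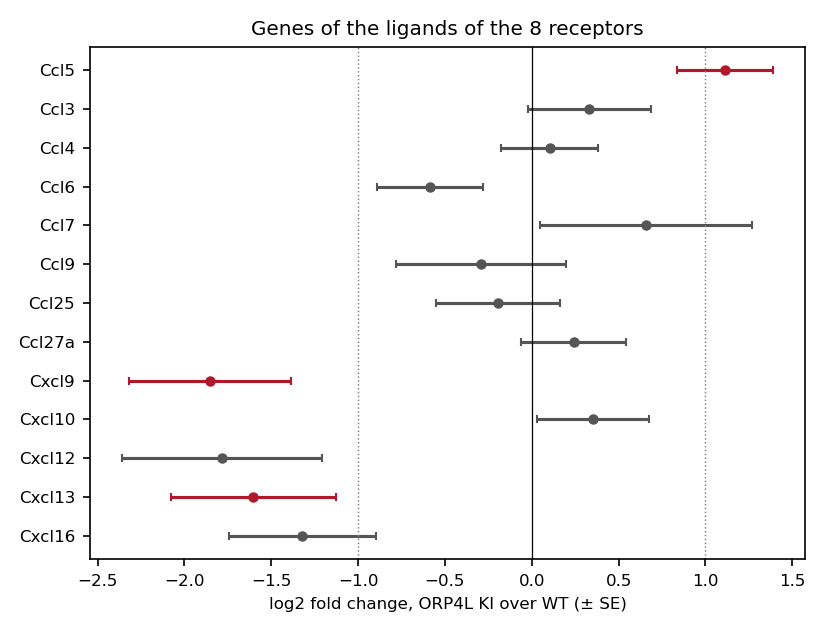
Log2 fold change of ORP4L KI over WT with its SE for the 13 ligand genes tested. Red marks genes called by the first rule. Ccl5 at 1.11 is higher, Cxcl9 at -1.85 and Cxcl13 at -1.60 are lower.

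Downstream of the receptors, 1 kinase gene was called. Of 21 G protein and effector genes, 0 were called, with a median log2 fold change of 0.09, and Arrb2, an arrestin, had the lowest p at 1.20 (SE 0.39, unadjusted p = 0.0131), followed by Gnai3 at 0.38. Arrb2 met the first rule with no filter, with DESeq2's Wald test (1.21) and without ORP4L KI replicate 2 (1.40). It was 0.77 without ORP4L KI replicate 1, which read 726 CPM beside 209, 312 and 395 CPM in the other ORP4L KI libraries. In ORP4L KI, though not in WT, the order of Arrb2 was that of the granulocyte-marker share. The part of granulocytes in Arrb2 was not tested. Of 15 genes listed as ending receptor signals, a list that held the arrestin Arrb1 but not Arrb2, 1 was called lower and 0 higher. This was Grk3, a kinase that phosphorylates receptors for arrestin binding, with 94.2, 130 and 112 CPM in WT and 48.9, 41.3, 45.4 and 36.5 CPM in ORP4L KI, a log2 fold change of -1.38 (SE 0.19, edgeR adjusted p = 0.0601). Of 14 homing partners, 0 were called, with Itgb2, the shared chain of leukocyte integrins, at 0.50 and Itgb7, a chain of the gut-homing integrin, at -0.54. Of 12 subset transcription factors, 0 were called, with Bcl6, the follicular helper factor, at -0.57.

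Ccr9, Cxcr6 and Ccr1 lie in 1 run of genes on chromosome 9, with Xcr1 and Ccr3 beside them. In this run Lztfl1 had a log2 fold change of -0.54, Ccr9 of -1.60, Fyco1 of -0.51, Cxcr6 of -0.08, Xcr1 of -0.87, Ccr1 of 0.38 and Ccr3 of -0.01. Ccr9 alone of these was called. Over all 8 receptor genes, 26 distinct neighbours outside the 8, up to 2 coding genes on each side, were listed, with Xcr1, Ccr3 and Ccr1l1 among them. Of these 18 passed the filter, 0 were called, and their log2 fold changes ran from -0.87 to 0.47 with a median of -0.22.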

How the data were processed

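Primary T-cells of 4 ORP4L KI mice and 3 WT littermates were sequenced as mRNA libraries on an Illumina NovaSeq 6000. The authors mapped reads to a mouse mRNA reference with FANSe3, discarded reads under 17 nt, merged splice variants, and deposited raw counts per gene and RPKM values by transcript length (mm10 per the labels). The version and strand handling are not given in the sources used here. Listed counts made up 99.81% to 99.91% of the totals the deposited RPKM values imply. Totals ran from 12918187 to 19665679 counts.

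Counts were tested with edgeR 4.0.16 (R 4.3.3): filterByExpr with a minimum count of 10 and total of 15, TMM scaling and the quasi-likelihood test, all 7 libraries and no covariate, with Benjamini-Hochberg adjustment over 13462 genes. The SE is the log2 fold change over the square root of F. RPKM served for levels between genes. No 2 libraries of the same group agreed within sampling noise. Alternatives were DESeq2 1.42.0 size factors and its Wald test, total counts, no filter and a replicate block over 6 libraries. The same 6 libraries without the block and each library left out were also fitted. Those 6 libraries are the ones left without ORP4L KI replicate 4, so these settings are the same fit. After the data were seen, the Xist or Ddx3y class was added as a term. The fits were tested on simulated data. The receptor genes and the lists were chosen with earlier results of these data known. Genes named were the 8 receptors, up to 4 called genes a list (else the 2 of lowest p), the 2 nearest profiles of each receptor and neighbours. Ccr7, Cxcl10, Cxcl12, Cxcl16, Ccl25, Cd3e, Cd4, Cd8a, Nkg7, Prf1 and Klrk1 were named after their values were seen. Some genes covered by the rule are not reported here.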

Additional observations from a re-analysis of the deposited data

Results flagged for a closer look

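Ccr10 stood out in ORP4L KI replicate 1, at 1.461 CPM beside 0.402 to 0.5477 CPM in the other 3 libraries, on counts of 24 beside 10, 7 and 7. The gap to the nearest library was wider than the limit set for 4 samples. Jchain stood apart in the same library, at 331.8 CPM beside 125.9 to 145.5. Ccl5 was at 999.6 CPM in ORP4L KI replicate 2 beside 644.2 to 679.1. Flt3, a receptor of dendritic-cell progenitors, was at 58.18 CPM in ORP4L KI replicate 3 beside 29.71 to 33.8. Of 53 groups tested in this way 4 stood out, where chance gives about 1 in 20, or 2.65. Without ORP4L KI replicate 1, Ccr10 no longer passed the filter on low counts, so no fold change could be given.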

How the results depend on the processing

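Of the receptor genes' 111 results under 14 alternatives, 104 kept their side of the threshold and direction, and 7 turned sign. Those were Cxcr5 at -0.04769 with the replicate block and -0.1143 to 0.3788 over the fits that leave out 1 library, and Cxcr6 at 0.01701 in the same 6 libraries without the block and -0.2106 to 0.05703 over the fits that leave out 1 library. Sdc1 ran from -0.6622 to 0.002391 over those fits, turning without WT replicate 1. Of the other named genes' 630 results, 585 kept their call, 23 lost it, 21 gained one and 1 turned. The cause was not tested. In both counts of results, the 6 libraries without the block and the libraries without ORP4L KI replicate 4 are the same fit, counted under both names. Called receptor genes by adjusted p were 1 with no filter, 1 with DESeq2's Wald test and 0 to 1 with 1 library left out, this 1 being Ccr9 without ORP4L KI replicate 2 (adjusted p = 0.0140). Over all genes, the 3 calls by adjusted p became 113 with total counts, 176 with no filter, 784 with DESeq2's Wald test and 0 with the Xist or Ddx3y class as a term (1544 at an unadjusted p under 0.05). With 1 library left out they were 0 to 342, the most without ORP4L KI replicate 2, and calls by the unadjusted rule were 328 to 805, the fewest without WT replicate 2. Scaling by library totals shifted the overall median by -0.14 and the share of higher calls from 50.8% to 40.3%. Same-numbered libraries did not deviate together, with correlations of 0.150, -0.535 and -0.00184 for the 3 numbers. The replicate block, without ORP4L KI replicate 4, gave 48 genes by adjusted p, and the same 6 libraries without the block gave 0 (1421 at an unadjusted p under 0.05), with Ccr9 at -1.61 and an adjusted p of 0.102 under the block. The block also ended the calls of Cxcl13 (-1.59) and Ly6c2 (1.15). Ccr10 had 7 counts in 3 libraries and Ccr6 in 1, the lowest of the receptor genes, so counting error is widest there.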

Other observations

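Dendritic-cell markers, apart from the plasmacytoid list, were lower in ORP4L KI in 7 of 8 genes by the unadjusted rule, with a median log2 fold change of -1.51. Cd209a, a lectin of monocyte-derived dendritic cells, was at 41.7 CPM in WT and 7.84 CPM in ORP4L KI on means, a log2 fold change of -2.41 (edgeR adjusted p = 0.0471). Cd209d, Flt3 and Itgax were at -3.01, -1.44 and -1.41. Of 12 monocyte and macrophage markers, 1 was called higher, Ly6c2 at 1.27, and 2 lower, Csf1r at -1.17 among them. The call of Csf1r was lost without WT replicate 2 (-0.94), and that of Ly6c2 without any of WT replicates 1 (1.34), 2 (1.37) and 3 (1.11) and ORP4L KI replicates 1 (0.90) and 4 (1.28), and with the Xist or Ddx3y class as a term (1.22). The granulocyte genes of lowest p were Mmp8 at 3.04, Ly6g at 3.90, Ltf at 4.41 and Ctsg at 4.57, in a list that ran from 3.04 to 4.72.

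Of 8 erythroid markers 0 were called, with a median of -0.71, and Hbb-b1 and Hbb-bs at -1.92 and -1.72 had the lowest p. Of 6 platelet markers 0 were called, with Gp1bb at 1.55 and Ppbp at -0.55. Gp1bb met the unadjusted rule with no filter, with DESeq2's Wald test and without ORP4L KI replicate 2 (1.87). Hbb-b1 and Hbb-bs met it with total counts, with DESeq2's Wald test and without ORP4L KI replicate 3 (-2.47 for both), Hbb-bs also with no filter and with the Xist or Ddx3y class as a term, and Jchain met it without ORP4L KI replicate 1 (-1.05). The T-cell genes of lowest p were Cd28 at 0.73 and Cd3d at 0.25. Klra4 and Klrb1c of the NK-cell list were at -1.76 and -1.50, while Nkg7 of that list was at 0.69. Of the 5 sex-linked genes 0 were called, with Uty at -1.23 and Kdm5d at -0.95 on the log2 scale and standard errors above 1.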
